A study of Mus musculus with 11 samples.

Results

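The 10 genes described here are the receptors that bind corticosterone in brain tissue, an enzyme that makes it inside cells, and 7 genes commonly used as readouts of glucocorticoid receptor activity. They were taken as the rows of the deposited count table whose gene name was Nr3c1, Nr3c2, Hsd11b1, Fkbp5, Ddit4, Tsc22d3, Errfi1, Sgk1, Zbtb16 or Nfkbia. Each name matched 1 row, so the set holds 10 of the 54532 genes in the table, and all 10 had enough counts to be tested among 19619 genes.

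Corticosterone, the main glucocorticoid of mice, is released by the adrenal cortex under control of the hypothalamus and pituitary, and rises with stress and with inflammation. It enters cells and binds the glucocorticoid receptor or the higher-affinity mineralocorticoid receptor, which leave a chaperone complex, move to the nucleus and bind DNA at palindromic glucocorticoid response elements. Several genes induced this way limit the hormone response, inflammation or growth signals, so their transcripts serve as a record of recent receptor activity.

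RNA was measured in dissected lateral habenula tissue, an epithalamic nucleus that signals aversive outcomes, in mice with collagen antibody-induced arthritis (CAIA) and in vehicle controls (Ctrl). CAIA mice were 3-month-old BALB/c animals of both sexes that received intraperitoneal antibodies against type II collagen (a cocktail of 5 clones, 50 mg/kg) and, 3 days later, lipopolysaccharide (LPS, 1 mg/kg). Ctrl mice were of the same strain and age and received vehicle. LPS exposure and arthritis cannot be told apart in this design, because every CAIA mouse had both. There were 3 female CAIA, 3 female Ctrl, 3 male CAIA and 2 male Ctrl libraries, 11 in all. The labels do not say that each library came from a different animal, so the p-values describe the spread among the libraries, which may be technical in part. No plasma hormone level was analysed here.

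The following 3 genes carry, in the 300 bases around a start site, letters that match a known regulatory motif. They are shown because Sgk1, Nfkbia and Errfi1 varied closely together across the libraries, while the windows shown hold different motifs. Ddit4 varied as closely with Nfkbia and Errfi1 (r = 0.89 and 0.88), and its window held none of the motifs searched. A link between motifs and shared variation was not tested. The windows run from 250 bases before to 50 bases after a RefSeq start site (GRCm38.p6), are written 5′ to 3′ on the coding strand, and have matched motifs in capitals. The Sgk1 window lies on the plus strand at chr10:21993640-21993939, the Nfkbia window on the minus strand at chr12:55492598-55492897 and the Errfi1 window on the plus strand at chr4:150854820-150855119.
Sgk1: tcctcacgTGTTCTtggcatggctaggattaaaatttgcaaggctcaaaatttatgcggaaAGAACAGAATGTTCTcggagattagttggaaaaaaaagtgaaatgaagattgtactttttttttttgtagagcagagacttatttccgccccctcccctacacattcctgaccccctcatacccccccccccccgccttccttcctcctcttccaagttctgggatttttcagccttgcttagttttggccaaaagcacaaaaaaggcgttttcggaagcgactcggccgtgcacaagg
Nfkbia: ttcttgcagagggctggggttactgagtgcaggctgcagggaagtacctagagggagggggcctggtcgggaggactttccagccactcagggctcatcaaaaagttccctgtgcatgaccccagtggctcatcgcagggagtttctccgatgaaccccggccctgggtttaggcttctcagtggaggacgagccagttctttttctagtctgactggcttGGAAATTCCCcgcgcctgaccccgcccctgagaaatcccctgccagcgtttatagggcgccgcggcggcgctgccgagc
Errfi1: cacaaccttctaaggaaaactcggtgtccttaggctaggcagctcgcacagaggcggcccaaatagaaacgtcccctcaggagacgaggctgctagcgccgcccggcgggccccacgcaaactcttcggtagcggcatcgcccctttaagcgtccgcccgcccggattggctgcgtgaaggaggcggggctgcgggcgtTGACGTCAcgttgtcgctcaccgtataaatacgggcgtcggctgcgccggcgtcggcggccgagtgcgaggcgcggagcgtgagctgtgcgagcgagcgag

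In the Sgk1 window the capitals mark a glucocorticoid response element, searched on both strands as AGAACA, any 3 bases and TGTTCT, which begins at position -189 relative to the start base. They also mark a separate single arm of that element (AGAACA on the other strand), and the arms of the full element match the same letters. The full element was an exact match in 3 of 32851 promoter windows of the same length (0.00913%), while a single arm was present in 19% of them. The capitals in the Nfkbia window mark an NF-kB site (GGG, any 2 bases, TTTCC on the other strand), which 1.63% of windows held. Those in the Errfi1 window mark a cAMP response element (TGACGTCA), which 1.79% of windows held. Of the 10 genes, 8 matched the promoter table, with 16 windows. Sgk1 had 6 of these and Errfi1 2, and the windows shown are those with the full element and the cAMP response element. Single arms also occurred in other Sgk1 windows, and the other Errfi1 window held none of the motifs. Another Sgk1 window, at its own start site, came within 2 mismatches of the full element, as 1.84% of all windows did. The windows of Fkbp5, Ddit4, Nr3c2 and Hsd11b1 held none of these letters, and those of Tsc22d3 held 1 single arm. Nr3c1 and Zbtb16 are named without a window. These are matches of letters and do not show that a factor was bound.

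The libraries held 25317306 to 29565006 counts, and the 10 genes had between 175 and 4968 counts each in every library. Transcripts of the labelled tissue were present, with the lateral habenula receptor gene Gpr151 at 167 ± 19.8 CPM (counts scaled to library size) in CAIA libraries and 164 ± 28.7 in Ctrl libraries (SD, n = 6 and 5). The neurokinin B gene Tac2, a marker of the adjoining medial habenula, was at 148 ± 17.1 CPM in CAIA libraries and 144 ± 23.7 in Ctrl libraries, so the tissue also held that nucleus. Choroid plexus markers differed between the treatments. All 14 had a negative fold change and 7 passed the test, and their mean level was 2.01 to 4.78 log2 CPM in CAIA libraries and 5.23 to 6.12 in Ctrl libraries (summed level, 249.6 to 2128 and 2718 to 5645 CPM). Transthyretin (Ttr), the major secreted protein of that epithelium, was at 274 ± 460.6 CPM in CAIA libraries and 2407 ± 697 in Ctrl libraries. Markers of hippocampus and cortex had a mean level of 5.08 to 5.35 log2 CPM in male CAIA libraries and 4.33 to 4.53 in male Ctrl libraries (summed level, 851 to 1169 and 824 to 882 CPM), against 4.82 to 5.34 in female CAIA libraries and 4.75 to 5.58 in female Ctrl libraries. Of the 8 blood leukocyte markers, 1 had enough counts to be tested. In bulk tissue, fewer cells of a type and less RNA per cell cannot be told apart.

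None of the 10 genes passed the test across all genes, while every one had a higher fitted level in CAIA tissue when both sexes were weighted equally. With a Benjamini-Hochberg threshold of 0.05 in edgeR (quasi-likelihood test), 0 of the 10 passed, against 0.596% of all genes tested (0.0204% higher and 0.576% lower). At an unadjusted p under 0.05 in edgeR, 7 of the 10 were higher and none lower, where 2.44% of all genes were higher and 3.92% lower. DESeq2, run on the same group means, passed 3 of the 10 at an adjusted p of 0.05 (Fkbp5, Ddit4 and Errfi1). With DESeq2, 222 of the 19619 genes passed in that comparison, against 117 in edgeR. The median log2 fold change (CAIA over Ctrl) was 0.38 over the 10 genes and 0.41 over the 7 targets, against 0.00 over all genes. The fold change was positive for 10 of 10, against 50% of all genes, and it stayed positive for 10 of 10 with each library left out in turn and with other size factors. The 10 genes were chosen with earlier results of these data known, so these counts are a description. For no gene did all 6 CAIA libraries lie above all 5 Ctrl libraries, where 0.168% of all genes had that pattern.

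**Figure D1:**
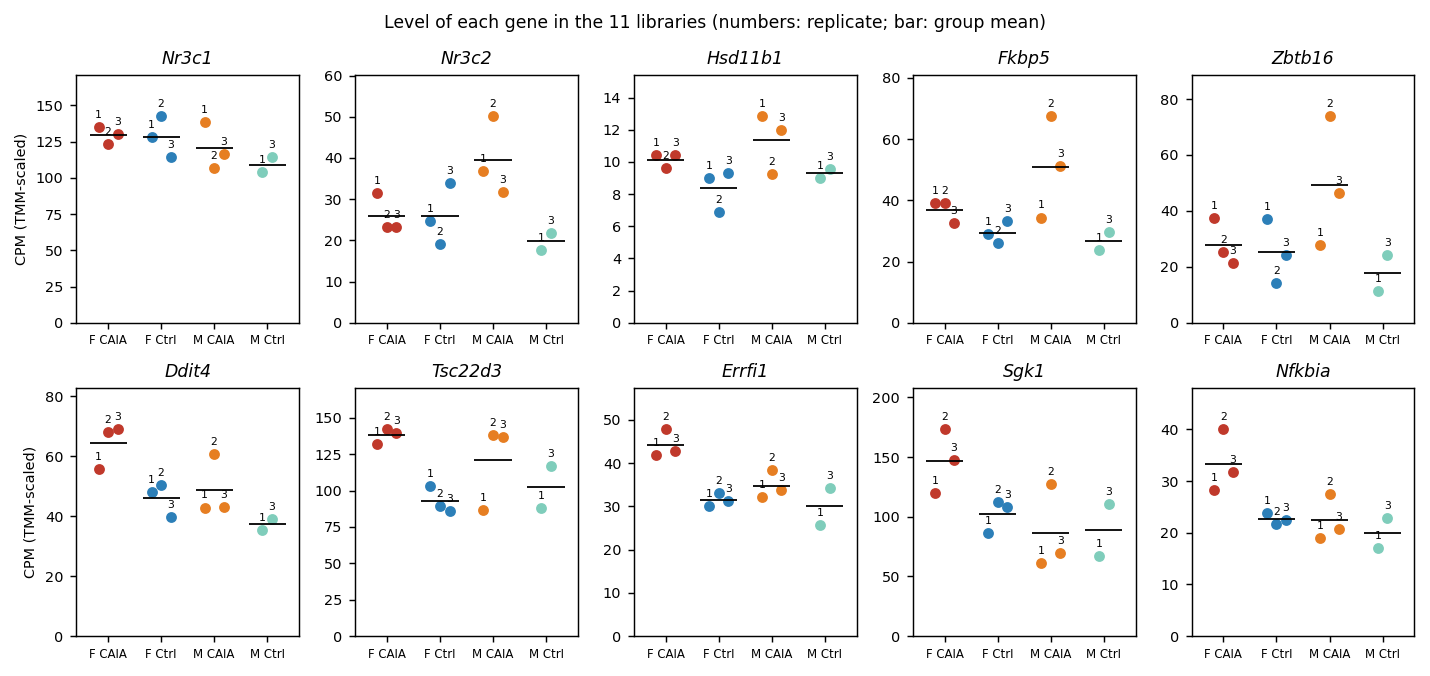
Level of each of the 10 genes in CPM (vertical axes, from 0) in every library, with female CAIA, female Ctrl, male CAIA and male Ctrl side by side, replicate numbers above the points and group means as bars. Ddit4, Tsc22d3, Errfi1, Sgk1 and Nfkbia are higher in all 3 female CAIA libraries than in the 3 female Ctrl libraries, and Nr3c2, Fkbp5 and Zbtb16 are highest in male CAIA replicate 2.

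Nr3c1, the glucocorticoid receptor gene, was at 135, 123 and 130 CPM in female CAIA libraries, against 128, 143 and 115 CPM in female Ctrl libraries. It was at 139, 107 and 117 CPM in male CAIA libraries, against 104 and 114 CPM in male Ctrl libraries. The groups overlapped in both sexes, and the fold change was 0.08 ± 0.08 (log2 ± SE, 95% interval -0.09 to 0.25, adjusted p = 0.940 in edgeR).

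Nr3c2 encodes the mineralocorticoid receptor, which binds corticosterone at its resting level and is abundant in hippocampus. It was at 31.6, 23.3 and 23.2 CPM in female CAIA libraries, against 24.6, 19.0 and 33.8 CPM in female Ctrl libraries. Male CAIA libraries had 36.8, 50.2 and 31.6 CPM, against 17.8 and 21.7 CPM in male Ctrl libraries. The female groups overlapped, while all 3 male CAIA libraries stood above both male Ctrl libraries. Its log2 fold change was 1.00 ± 0.26 in males (adjusted p = 0.573 in edgeR) and 0.01 ± 0.23 in females (adjusted p = 1.00). With the level of the hippocampus and cortex markers as a covariate, the male value was 0.42 ± 0.35. Nr3c2 shares its span with the antisense gene Gm10649, which had 324 counts over all libraries beside 8503 for Nr3c2.

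Hsd11b1 encodes 11β-hydroxysteroid dehydrogenase type 1, which regenerates active corticosterone from its inactive 11-keto form. It was at 10.4, 9.63 and 10.4 CPM in female CAIA libraries, against 8.99, 6.87 and 9.30 CPM in female Ctrl libraries. It was at 12.9, 9.27 and 12 CPM in male CAIA libraries, against 8.99 and 9.59 CPM in male Ctrl libraries. The female groups did not overlap, with Ctrl replicate 2 the lowest library, and male CAIA replicate 2 fell between the male Ctrl libraries. Its log2 fold change was 0.28 ± 0.11 over both sexes (adjusted p = 0.632 in edgeR), with 0.27 ± 0.15 in females and 0.29 ± 0.17 in males. The antisense gene Lamb3, which overlaps it, had 271 counts beside 2951 for Hsd11b1.

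Among the targets, Ddit4, Tsc22d3, Errfi1, Sgk1 and Nfkbia gave the clearest separation in females. Ddit4, which encodes REDD1, an inhibitor of mTOR complex 1 also induced by hypoxia and energy stress, was at 55.8, 68.1 and 69.0 CPM in female CAIA libraries, against 48.0, 50.2 and 39.8 CPM in female Ctrl libraries. In males it was at 42.9, 60.7 and 43.0 CPM in CAIA libraries, against 35.5 and 38.9 CPM in Ctrl libraries. Ddit4 was the only one of the 10 genes with no overlap in either sex. The share of all genes with that pattern was not computed. In 1 sex alone, 5.08% of all genes in females and 9.18% in males were higher in every CAIA library. Pooled over the sexes the groups did overlap, as male CAIA replicates 1 and 3 lay below female Ctrl replicates 1 and 2. The log2 fold change was 0.44 ± 0.10 (adjusted p = 0.101 in edgeR), with 0.48 ± 0.14 in females and 0.39 ± 0.16 in males. The male value was 0.20 without male CAIA replicate 2.

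Tsc22d3 encodes GILZ, a leucine zipper protein that restrains NF-kB and AP-1. It was at 132, 142 and 140 CPM in female CAIA libraries, against 103, 89.4 and 86.2 CPM in female Ctrl libraries. Male CAIA libraries had 86.9, 138 and 137 CPM, against 88.0 and 117 CPM in male Ctrl libraries. Thus 5 of the 6 CAIA libraries lay above every Ctrl library, and male CAIA replicate 1 lay among the lowest. Its log2 fold change was 0.40 ± 0.12 over both sexes (adjusted p = 0.339 in edgeR) and 0.57 ± 0.16 in females (adjusted p = 0.339). Without male CAIA replicate 1 the value over both sexes was 0.50 and passed, with an adjusted p of 0.0227 in edgeR. Without male Ctrl replicate 1 it was 0.30 (adjusted p = 0.903) and the male value was 0.0412.

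Errfi1, which encodes MIG6, a feedback inhibitor of the epidermal growth factor receptor, had the lowest p of the 10 genes. It was at 41.9, 47.9 and 42.9 CPM in female CAIA libraries, against 30.1, 33.1 and 31.2 CPM in female Ctrl libraries. In males it was at 32.2, 38.4 and 33.7 CPM in CAIA libraries, against 25.7 and 34.3 CPM in Ctrl libraries. The female groups were well apart and the male groups overlapped. Its log2 fold change was 0.35 ± 0.08 over both sexes (adjusted p = 0.0924 in edgeR, rank 173 of 19619 genes) and 0.49 ± 0.11 in females (adjusted p = 0.103, rank 96). Over both sexes it was at 0.47 and passed without male Ctrl replicate 3 (adjusted p = 0.0203 in edgeR), and was at 0.25 without male Ctrl replicate 1 (adjusted p = 0.450), a fit in which its male value was 0.0116. It passed in females with DESeq2 (adjusted p = 0.0154) and with the female libraries alone (0.0274).

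Nfkbia encodes IκBα, which holds NF-kB in the cytoplasm and is induced both by glucocorticoids and by NF-kB itself. It was at 28.3, 40.0 and 31.8 CPM in female CAIA libraries, against 23.9, 21.7 and 22.5 CPM in female Ctrl libraries. It was at 19.0, 27.5 and 20.7 CPM in male CAIA libraries, against 17.1 and 22.8 CPM in male Ctrl libraries. The lowest female CAIA library stood above the highest female Ctrl library, and the male groups overlapped. The log2 fold change was 0.36 ± 0.12 over both sexes (adjusted p = 0.445 in edgeR), with 0.56 ± 0.16 in females and 0.17 ± 0.18 in males. The male value was -0.03 without male Ctrl replicate 1 and 0.40 without male Ctrl replicate 3.

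Sgk1 encodes a serum- and glucocorticoid-regulated kinase that acts on ion channels and transporters and is abundant in oligodendrocytes. It was at 120, 173 and 147 CPM in female CAIA libraries, against 86.6, 113 and 108 CPM in female Ctrl libraries. In males it was at 60.9, 127 and 69.5 CPM in CAIA libraries, against 66.9 and 111 CPM in Ctrl libraries. The female groups did not overlap, while male CAIA replicate 1 was the lowest of all 11 libraries and male CAIA replicate 2 the highest of the males. Its log2 fold change was 0.52 ± 0.31 in females and -0.05 ± 0.34 in males, and 0.24 ± 0.23 over both sexes (adjusted p = 0.940 in edgeR). Oligodendrocyte markers were at 7.77 to 7.97 log2 CPM in female CAIA libraries and 7.70 to 8.14 in female Ctrl libraries, and at 7.65 to 7.87 and 7.74 to 7.89 in male CAIA and male Ctrl libraries. Sgk1 was the single gene of the 10 with a negative value in a sex, and the male value ranged from -0.46 without male CAIA replicate 2 to 0.37 without male Ctrl replicate 3. Over both sexes its value was 0.03 without male CAIA replicate 2 and 0.45 without male Ctrl replicate 3.

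Fkbp5 and Zbtb16 had their largest values in males. Fkbp5 encodes FKBP51, a co-chaperone that lowers the hormone affinity of the glucocorticoid receptor and so closes a feedback loop. It was at 39.1, 39.2 and 32.6 CPM in female CAIA libraries, against 29.1, 26 and 33.1 CPM in female Ctrl libraries. Male CAIA libraries had 34.4, 67.6 and 51.1 CPM, against 23.7 and 29.5 CPM in male Ctrl libraries. The male groups did not overlap, and in females the lowest CAIA library lay just under the highest Ctrl library. The log2 fold change was 0.63 ± 0.16 over both sexes (adjusted p = 0.172 in edgeR), 0.94 ± 0.23 in males and 0.33 ± 0.20 in females. Fkbp5 passed over both sexes without male CAIA replicate 1 (0.74, adjusted p = 0.00817 in edgeR) and with DESeq2 (adjusted p = 0.00231), and in males with DESeq2 (adjusted p = 0.0123). Over both sexes it was at 0.55 without male Ctrl replicate 1 (adjusted p = 0.753 in edgeR) and at 0.50 without male CAIA replicate 2 (adjusted p = 0.123).

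Among the 3 male CAIA libraries the choroid plexus markers were at 2.18, 4.78 and 3.38 log2 CPM in replicates 1, 2 and 3, and Fkbp5 and the 6 other targets took the same order. With the choroid plexus level as a covariate Fkbp5 was the one gene of 19619 that passed over both sexes, at 1.66 ± 0.21 (adjusted p = 0.0326 in edgeR), and it passed in males at 1.68 ± 0.19 (adjusted p = 0.00731). The covariate separates CAIA from Ctrl libraries completely, so its coefficient and that of treatment rest on the spread within the groups. The covariate spread most within male CAIA libraries (SD 1.30 log2 CPM), against 0.08, 0.45 and 0.16 in female CAIA, female Ctrl and male Ctrl libraries. In females Fkbp5 was at 1.64 ± 0.27 with the covariate (adjusted p = 0.222 in edgeR), against 0.33 ± 0.20 without it. In the same fit the values of Nr3c1 and Hsd11b1 were -0.33 ± 0.18 and -0.18 ± 0.27, and all 7 targets had larger positive values than without it. Their standard errors were larger as well, with Errfi1 at 0.66 ± 0.20, against 0.35 ± 0.08 without the covariate. The 6 targets other than Fkbp5 had an adjusted p of 0.999 in edgeR.

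Zbtb16 encodes PLZF, a zinc finger repressor that is among the most inducible glucocorticoid targets in many cell types. It was at 37.3, 25.2 and 21.2 CPM in female CAIA libraries, against 37.2, 14.2 and 24.1 CPM in female Ctrl libraries. In males it was at 27.8, 74.0 and 46.5 CPM in CAIA libraries, against 11.5 and 24.1 CPM in Ctrl libraries. It was the most variable of the 10 genes, with a 6.42-fold range over the 11 libraries, and only the male groups did not overlap. The log2 fold change was 0.81 ± 0.38 over both sexes (adjusted p = 0.816 in edgeR) and 1.47 ± 0.58 in males (adjusted p = 0.871), where it was 1.03 without male Ctrl replicate 1 and 2.11 without male Ctrl replicate 3. With the level of the hippocampus and cortex markers as a covariate the values over both sexes and in males were 0.22 ± 0.31 and 0.09 ± 0.57. That level was lower in both male Ctrl libraries than in any other library, and with it Fkbp5 was at 0.51 ± 0.20 over both sexes.

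**Figure D2:**
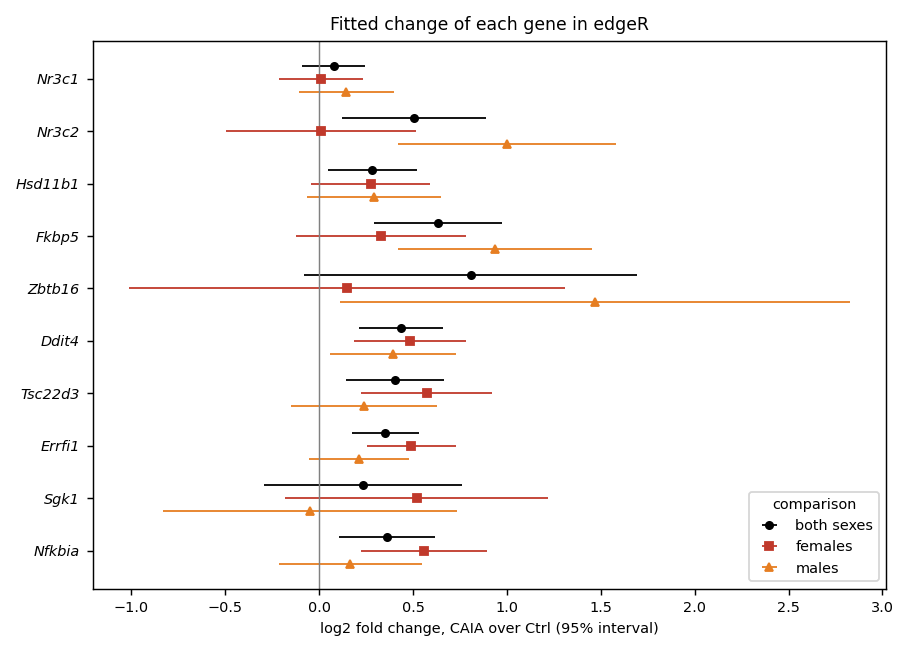
Log2 fold change of each gene, CAIA over Ctrl, in edgeR (horizontal axis, with 95% intervals) over both sexes (black circles), in females (red squares) and in males (orange triangles). All values over both sexes lie right of 0, from 0.08 for Nr3c1 to 0.81 for Zbtb16, and the female and male values of Nr3c2 are 0.01 and 1.00.

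The genes that stood apart were not the same list in each sex, and no difference between the sexes passed the test. In females 6 of the 10 genes were higher in every CAIA library than in every Ctrl library (Hsd11b1, Ddit4, Tsc22d3, Errfi1, Sgk1 and Nfkbia), where 5.08% of all genes were. In males 4 were (Nr3c2, Fkbp5, Ddit4 and Zbtb16), where 9.18% of all genes were. No gene of the 10 passed in either sex in edgeR, with 0.26% of all genes passing in females and 0% in males. At an unadjusted p under 0.05 in edgeR, 4 genes were higher in females and 4 in males, against 1.16% and 3.13% of all genes. The fold change was positive for 10 of the 10 in females and 9 in males, against 49.5% and 49.8% of all genes. The sex difference in the CAIA effect, female minus male, with the lowest p was that of Nr3c2, at -0.99 ± 0.35 log2 (unadjusted p = 0.0158, adjusted p = 0.978 in edgeR). The largest was that of Zbtb16 at -1.32 ± 0.76, Fkbp5 was at -0.61 ± 0.31, and Sgk1 was at 0.57 ± 0.46 and Nfkbia at 0.39 ± 0.23. In that test 0% of all genes passed an adjusted p of 0.05 and 4.11% an unadjusted one.

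Correlations over the 11 libraries divided the genes in a similar way, but they contain the same group differences. Over the 45 pairs, 11 had a Pearson correlation of log2 CPM that passed after adjustment over the pairs (two-sided permutation test with 1e+05 resamples). By Spearman correlation 13 passed. No such share was computed over pairs of other genes, so these counts do not set the 10 genes apart. All 11 pairs that passed by Pearson correlation fell within one or the other of 2 sets, which were named after the values were seen. Of the 10 pairs among Ddit4, Tsc22d3, Errfi1, Sgk1 and Nfkbia, 8 passed, with r from 0.74 to 0.92. Ddit4 with Tsc22d3 (0.70, adjusted permutation p = 0.0756) and Tsc22d3 with Sgk1 (0.57, adjusted permutation p = 0.208) did not. By Spearman correlation these 2 pairs did pass, with rho of 0.77 and 0.75 (adjusted permutation p = 0.0345 and 0.035). All 3 pairs among Nr3c2, Fkbp5 and Zbtb16 passed, with r from 0.83 to 0.88, and none of the 15 pairs between the sets did (r from -0.04 to 0.66). Nr3c1 and Hsd11b1 passed with no other gene, in 17 pairs with r from -0.36 to 0.48.

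The closest pair was Errfi1 with Nfkbia, at r = 0.92 and rho = 0.80 (permutation p = 7e-05 and 0.00474, adjusted p = 0.0027 and 0.0309), and r was 0.83 without the 2 libraries farthest from the median of Errfi1. Sgk1 with Nfkbia had r = 0.90 and rho = 0.90 (permutation p = 0.00018 and 0.00052, adjusted p = 0.0027 and 0.0234), and r = 0.85 without its 2 farthest libraries. Fkbp5 with Zbtb16 had r = 0.88 and rho = 0.80 (permutation p = 0.00027 and 0.0048, adjusted p = 0.00304 and 0.0309), and r = 0.72 without male CAIA replicates 2 and 3. Nr3c2 with Zbtb16 had r = 0.83 and rho = 0.76 (permutation p = 0.00137 and 0.00848, adjusted p = 0.00881 and 0.0347), and r = 0.79 without its 2 farthest libraries. Group differences enter these values. As deviations from the 4 group means, 0 of the 45 pairs passed (exact permutation within groups, 432 arrangements, smallest possible p 0.00231), and the median r over the 21 target pairs was 0.68. Errfi1 with Sgk1 reached that smallest exact permutation p, with r = 0.90 and an adjusted p of 0.104. On these deviations the 2 sets were not apart. The 15 pairs between them had r from -0.05 to 0.76 (median 0.39), with Fkbp5 closer to Tsc22d3 (0.76) than to Nr3c2 (0.61). The count of 11 pairs was 7 without male CAIA replicate 2 and 7 without male Ctrl replicate 1.

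**Figure D3:**
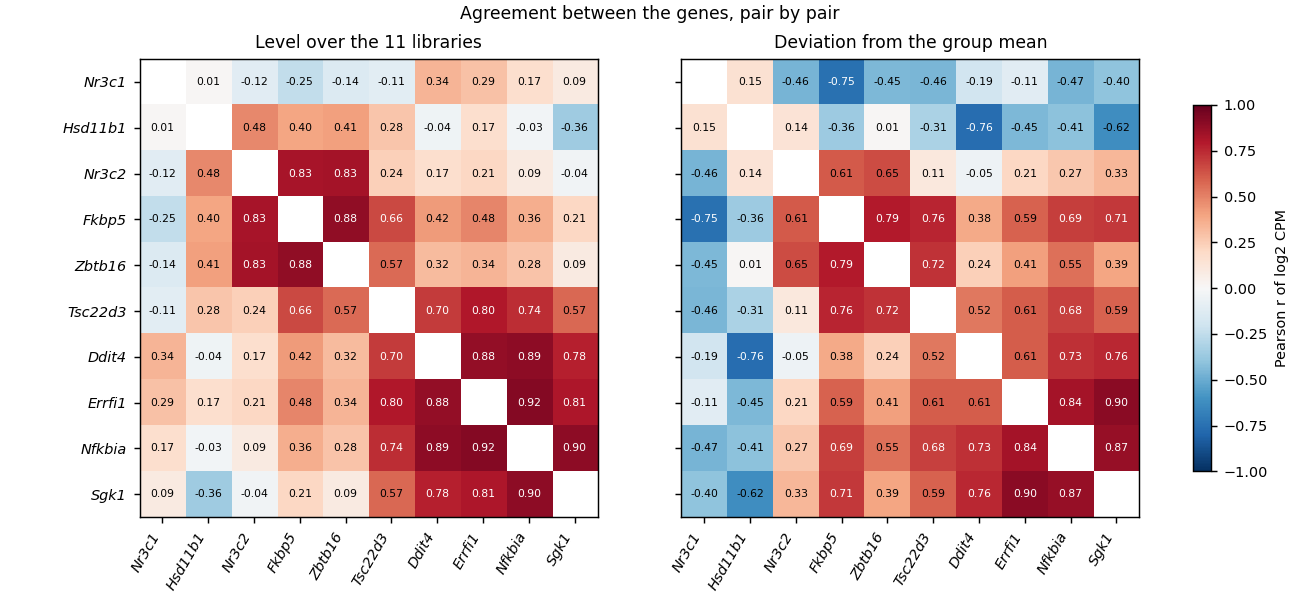
Pearson correlation of log2 CPM for each pair of the 10 genes over the 11 libraries (left) and as deviations from the group means (right), with red for positive and blue for negative values. On the left, Nr3c2, Fkbp5 and Zbtb16 form a block with r of 0.83 to 0.88, and Ddit4, Errfi1, Nfkbia and Sgk1 a block that reaches 0.92.

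Library by library, the 7 targets together were highest in female CAIA replicate 2 and male CAIA replicate 2, with mean standardized levels of 1.15 and 1.09 SD above the mean of the 11 libraries. They were lowest in male Ctrl replicate 1, at -1.42. All 3 female CAIA libraries were positive, at 0.62, 1.15 and 0.72, and all 3 female Ctrl libraries negative, at -0.28, -0.53 and -0.48. The male CAIA libraries were uneven, at -0.69, 1.09 and 0.08, against -1.42 and -0.26 in the male Ctrl libraries. Male CAIA replicate 1 was therefore below every female Ctrl library, while male CAIA replicate 2 was level with the female CAIA libraries. Male CAIA replicate 1 also had the lowest choroid plexus level of the male libraries and replicate 2 the highest of the CAIA libraries. The part of dissection in this spread was not tested.

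**Figure D4:**
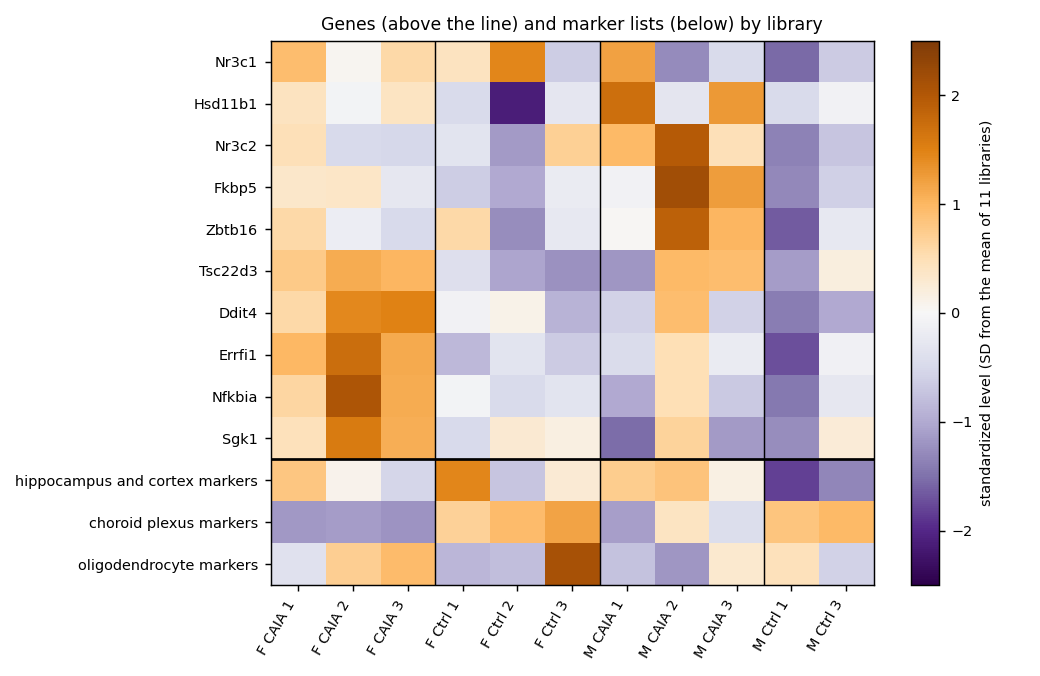
Standardized level (SD from the mean of the 11 libraries, colour) of each gene and of 3 marker lists (rows) in every library (columns), in the order female CAIA, female Ctrl, male CAIA and male Ctrl. Ddit4, Tsc22d3, Errfi1, Sgk1 and Nfkbia are high in the female CAIA columns, where Fkbp5 and Zbtb16 are mixed. The targets are all high in male CAIA replicate 2. They are all low in male Ctrl replicate 1, where the hippocampus and cortex markers are lowest too.

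Levels of different genes were compared as CPM per kilobase of exon, averaged over the 11 libraries. Ddit4 was highest at 28.6 ± 6.69 CPM per kb (SD, n = 11), followed by Tsc22d3 at 26.4 ± 5.56 and Sgk1 at 21.9 ± 7.12. Nr3c1 followed at 16.0 ± 1.68 and Nfkbia next at 15.5 ± 4.07. Errfi1 stood at 9.93 ± 1.81 CPM per kb, Zbtb16 at 5.90 ± 3.31, Nr3c2 at 4.40 ± 1.47, Fkbp5 at 3.89 ± 1.34 and Hsd11b1 at 2.32 ± 0.38. The ranges over libraries overlapped for every pair of neighbours in this order. Within libraries the order was firm at 2 places, since Nfkbia exceeded Errfi1 and Fkbp5 exceeded Hsd11b1 in 11 of 11 libraries. Ddit4 exceeded Tsc22d3 in 8 of 11 and Nr3c1 exceeded Nfkbia in 7 of 11, so those neighbours were not told apart. The glucocorticoid receptor transcript was thus more abundant per length than the mineralocorticoid receptor transcript in every library, as the lowest Nr3c1 level was 13.6 CPM per kb and the highest Nr3c2 level 7.76.

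A list of 26 other glucocorticoid-responsive genes showed the same direction with smaller values. This list too was chosen with earlier results of these data known, so its direction is no independent check. Of the 26, 25 had a positive fold change over both sexes (50% of all genes), with a median of 0.21 (log2). None passed the test in edgeR, where 0.596% of all genes did. In females 23 were positive (49.5% of all genes), with a median of 0.19, and in males 24 (49.8%), with a median of 0.20. With each library left out, 22 to 25 stayed positive over both sexes and the median was 0.11 to 0.27, lowest without male CAIA replicate 2. In males 18 to 24 stayed positive and the median was 0.08 to 0.35, again lowest without male CAIA replicate 2. With the choroid plexus level as a covariate the median over both sexes was 0.65, with 25 of 26 positive. That covariate separates CAIA from Ctrl libraries completely, so this median rests on the spread within the groups, which was widest in male CAIA libraries. With the hippocampus and cortex level as a covariate, 16 of 26 were positive in males, with a median of 0.06. Cebpd, a transcription factor gene of the acute phase response, had the lowest p, at 7.64 ± 1.45 CPM in CAIA libraries and 4.91 ± 1.47 in Ctrl libraries (log2 fold change 0.74 ± 0.16, adjusted p = 0.0516 in edgeR). Mfsd2a, a lysophospholipid transporter gene of the blood-brain barrier, was at 27.5 ± 4.27 CPM in CAIA libraries and 20.6 ± 2.39 in Ctrl libraries (0.42 ± 0.12). The repressor gene Bcl6 was at 0.43 ± 0.14 and the circadian repressor gene Nfil3 at 0.21 ± 0.10. Angptl4, which encodes an inhibitor of lipoprotein lipase, was the one gene below 0, at -0.11 ± 0.15.

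**Figure D5:**
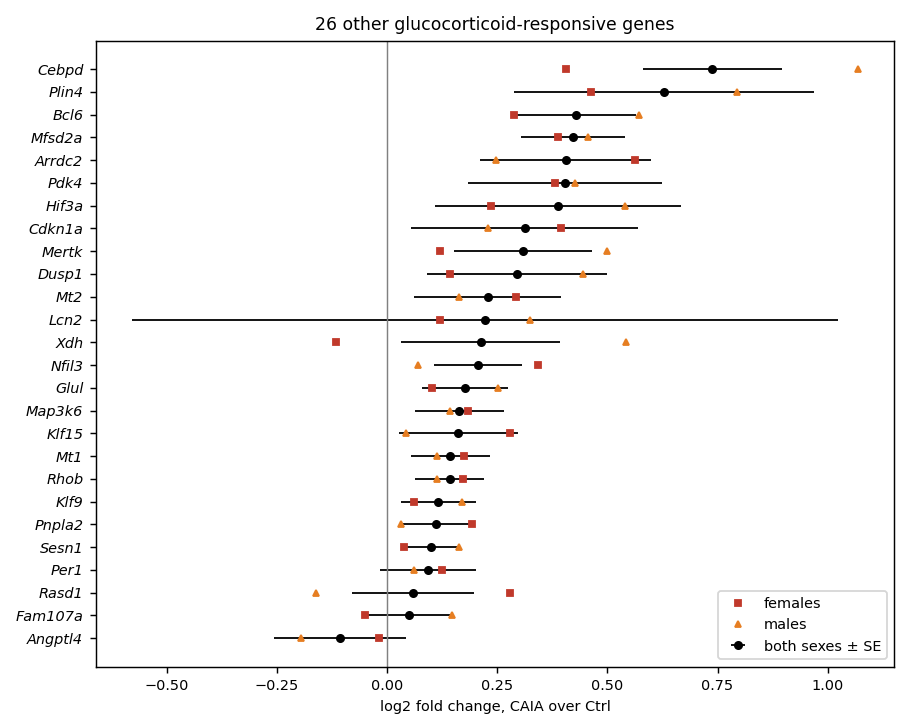
Log2 fold change, CAIA over Ctrl, of the 26 other glucocorticoid-responsive genes in edgeR (horizontal axis), over both sexes (black circles with SE), in females (red squares) and in males (orange triangles). Over both sexes, 25 of the 26 lie right of 0, with Cebpd at 0.74 and Angptl4 at -0.11.

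The rest of the pathway lay close to 0. Of 17 receptor chaperone and coregulator genes, 15 had a positive fold change (50% of all genes) but the median was 0.04. None passed in edgeR, where 0.596% of all genes did. The corepressor gene Nrip1, whose product binds nuclear receptors, was at 36.5 ± 1.05 CPM in CAIA libraries and 32.3 ± 4.72 in Ctrl libraries (0.20 ± 0.08). Hspa8, Fkbp4 and Ncor1 were at 0.07 ± 0.07, 0.06 ± 0.06 and 0.09 ± 0.09. Of 7 genes of corticosteroid metabolism and transport, 5 were tested, 3 were positive and none passed, with a median of 0.01. Abcb1a, which encodes the efflux pump P-glycoprotein, was at 0.11 ± 0.08, Abcb1b at 0.07 ± 0.15, Por at -0.03 ± 0.06 and Srd5a1 at -0.05 ± 0.12. Hsd11b2, which encodes the enzyme that inactivates corticosterone, had 81 counts over all 11 libraries and the corticosteroid-binding globulin gene Serpina6 had 0, and neither was tested.

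Several targets also answer to other signals, so lists for those signals were set beside them. Nfkbia is a classical NF-kB feedback gene, and of 10 other NF-kB feedback genes 4 had a positive fold change and none passed in edgeR, with a median of -0.09. In that list Tnip1 was at -0.12 ± 0.07, Icam1 at -0.25 ± 0.16, Nfkbiz at -0.18 ± 0.14 and Nfkbie at -0.15 ± 0.12. Ddit4 is also a target of the stress factor ATF4, and of 11 ATF4 target genes 5 were positive and none passed, with a median of -0.01. There Trib3 was at 0.56 ± 0.36 at a level under 1 CPM, Sesn2 at 0.10 ± 0.07, Ddit3 at -0.08 ± 0.07 and Asns at 0.07 ± 0.07. Errfi1 is induced by growth factor signalling through ERK, and of 10 ERK feedback genes 7 were positive and none passed, with a median of 0.07. Spry4 and Dusp4, both inhibitors of that cascade, were at 0.32 ± 0.09 and 0.36 ± 0.12, Spred1 at 0.15 ± 0.10 and Spry2 at -0.13 ± 0.09. Over all genes, 50% had a positive fold change and 0.596% passed in edgeR. The list counts are a description and set no list apart from the rest of the genes.

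Genes outside the set that followed the mean standardized level of the 7 targets most closely over the 11 libraries were Zcchc24 (r = 0.95), the glucose transporter gene Slc2a1 (0.93), the RNA polymerase III subunit gene Polr3e (0.90), the transglutaminase gene Tgm2 (0.89), Nrros (0.88), Net1 (0.87), Gm12264 (0.87) and Tmcc1 (0.86). The targets themselves correlated with that mean, which contains them, at 0.61 for Zbtb16 to 0.92 for Errfi1. On deviations from the group means the closest were Dzip1l (0.98), Polr3e (0.97), the flap endonuclease gene Fen1 (0.96), Mxd4 (0.95), Il12rb1 (0.94), Dmpk (0.93), the lipid droplet gene Plin4 (0.93) and Zcchc24 (0.92). Polr3e and Zcchc24 were named by both measures, and Plin4 is also on the list of 26 other glucocorticoid-responsive genes, at 0.63 ± 0.34 (log2). All of these values are the highest among all genes tested with a mean of at least 1 CPM and are a description only.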

How the data were processed

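The 11 libraries of total RNA from lateral habenula dissections were grouped by sex and treatment from their titles. The authors deposited raw integer read counts for each gene, without normalization. The submitters' processing notes name GRCm38, HISAT2 2.0.5, cutadapt 1.9.1 and featureCounts 1.5.0-p3. The strand setting and the annotation release were not given in the sources used here. Where genes overlap or lie antisense to each other, their reads cannot be told apart. No molecular identifiers are named, so counting error covers reads and not molecules.

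Genes were filtered with filterByExpr by group in edgeR 4.0.16 (R 4.3.3), which left 19619 of 54532. TMM factors scaled the counts, and the 4 group means were fitted together (robust glmQLFit, then glmQLFTest, with 7 residual degrees of freedom), since there were 2 male Ctrl libraries. Contrasts were CAIA against Ctrl with the sexes weighted equally, in females, in males, and the difference between these. All tested genes entered the Benjamini-Hochberg adjustment, with a threshold of 0.05. Standard errors were computed from the fold change and its F statistic. CPM uses TMM-scaled library sizes, and log2 CPM a prior count of 2. Lengths and positions came from GENCODE M21, to which 54409 identifiers matched, and promoter windows from RefSeq GRCm38.p6. Within groups, no library pair looked like the same library deposited more than once (chi-square per degree of freedom 6.81 to 29.2), which does not show that libraries came from separate animals.

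The 10 genes and the lists (7 of the 10 as targets, 6 other pathway lists and 12 marker lists by cell type or region) were chosen with earlier results of these data known. From each pathway list, up to 4 genes with the lowest p over both sexes are named, and the 8 closest genes by each correlation. Ttr, Gpr151 and Tac2 are named in any case, and Angptl4 was named after its values were seen. Of the marker lists, genes passed only among the choroid plexus markers (7 of 14 lower) and the meningeal fibroblast markers (3 of 8 lower). None passed among the pineal, endothelial, astrocyte, oligodendrocyte, microglia, lateral habenula, medial habenula, thalamus, hippocampus and cortex, or blood leukocyte markers, whose median log2 fold changes were 0.87, -0.03, 0.16, -0.04, 0.07, 0.02, 0.01, 0.03, 0.27 and 0.04.

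The script was tested on simulated data. Alternatives were other size factors, other filters, DESeq2 1.42.0, limma-voom (limma 3.58.1) with and without quality weights, an additive model, 1 sex alone, a replicate block, marker levels as covariates, a threshold of 0.1 and each library left out. Without a male Ctrl library, 1 library is left in that group and its spread is assumed to be that of the others. Figures were drawn with matplotlib 3.10.9.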

Additional observations from a re-analysis of the deposited data

Results flagged for a closer look

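In 20 groups of libraries (each gene in CAIA and in Ctrl), the gap between an extreme library and its nearest neighbour was compared with the whole range. Chance flags about 1 group in 20 by this measure. It picked out Tsc22d3 in CAIA, where male CAIA replicate 1 was lowest at 86.9 CPM and the next of the 6 libraries was at 132 CPM. It also picked out Hsd11b1 in Ctrl, where female Ctrl replicate 2 was lowest at 6.87 CPM and the next of the 5 libraries was at 8.99 CPM.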

How the results depend on the processing

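Over 910 values of the 10 genes under alternatives, 841 kept their direction and their side of the threshold, 36 came to pass it and 33 changed sign. Since none of the 10 passed at the outset, no pass could be lost. Values are given for both sexes, females, males and the sex difference in turn, unless 1 is named.

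Genes passing numbered 117, 51, 0 and 0. Without the count filter they were 470, 452, 423 and 316, with DESeq2 222, 171, 71 and 2, and with the choroid plexus level 1, 0 and 1 in the first 3. They were 13 over both sexes with the hippocampus and cortex level, 100 in females with quality weights, 108 with females alone, 43 with males alone, and 179 and 91 over both sexes and in females at a threshold of 0.1. Leaving out libraries gave 43 to 180, 0 to 104, 0 to 142 and 0.

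Of the 10 genes none passed. Without the filter 7, 5, 3 and 3 did; in that fit edgeR's prior degrees of freedom were infinite (7.49 with the filter), and the quasi-dispersion of Zbtb16 was 0.705 instead of 12.8. With DESeq2 3, 1 (Errfi1) and 2 (Nr3c2 and Fkbp5) passed, and with the choroid plexus level 1 (Fkbp5) over both sexes and 1 in males. Errfi1 was the 1 passing in females with quality weights and the 1 over both sexes at 0.1, and 2 (Tsc22d3 and Errfi1) passed in females alone. Leaving out libraries gave 0 to 2 over both sexes, 0 to 1 in females and 0 in males. Genes of all lists passing numbered 10, and 0 to 17 with libraries left out. Correlated pairs numbered 11, 7 to 13 with libraries left out, and 0 as deviations from group means. The causes were not tested.

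Signs changed with the choroid plexus level for Nr3c1 (-0.332, -0.495 and -0.169 in both sexes, females and males), Hsd11b1 (-0.176, -0.292 and -0.0606) and Sgk1 in males (0.83), and with the hippocampus and cortex level for Sgk1 in males (0.0607) and the sex differences of Hsd11b1 (0.19) and Zbtb16 (0.26). They changed for Nr3c2 in females with a mean filter of 1 CPM (-0.000354), Nr3c1 in females with quality weights (-0.0136) and the sex difference of Hsd11b1 with limma-voom (0.00133). With libraries left out, Nr3c1 ranged over -0.0699 to 0.0999, Nr3c2 -0.16 to 0.25 and Zbtb16 -0.13 to 0.55 in females, Sgk1 -0.46 to 0.37 and Nfkbia -0.0318 to 0.399 in males, and the sex differences of Hsd11b1 -0.146 to 0.0814 and Ddit4 -0.0039 to 0.28.

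Same-numbered CAIA and Ctrl libraries deviated from their group means with correlations of 0.02, -0.04 and -0.09 in females and 0.03 and -0.21 in males. Differently numbered libraries had values from -0.0665 to 0.0998 in females and from -0.248 to 0.248 in males. Deviations from the mean of so few libraries are tied to each other, and in male Ctrl they are exact opposites. These values therefore cannot decide whether the numbers pair samples. With a replicate block, 1 gene passed in males and none of the 10 in any comparison.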
